A study of Homo sapiens with 8 samples.

Results

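The 36 genes described here serve protein folding in the endoplasmic reticulum (ER) and were chosen by name. There are 15 ER chaperones and disulfide isomerases, 10 genes of ER-associated degradation, 8 sensors, transcription factors and outputs of the unfolded protein response, and 3 genes of the translocon. All 36 were measured, out of 17910 genes, by 69 features. The array holds 70 features of these genes among its 44290, and 1 of HSP90B1 was saturated in both scans. A feature is a spot of the Agilent whole human genome array whose annotation gives the gene symbol. UFD1, formerly UFD1L, was listed under its current symbol. The samples were differentiated monolayers of Caco-2 cells, an established line from a human colorectal adenocarcinoma whose cells polarise into an enterocyte-like sheet, grown for 18 days and then kept for 10 h with L. plantarum MB452 or with control medium. The MB452 group received Lactobacillus plantarum MB452 at an optical density of 0.9 in M199 medium with non-essential amino acids, and the control group had medium without bacteria. Each group consisted of 2 RNA pools of 3 wells each (MB452 A and B, control A and B), and the Cy5-labelled RNA of each pool was set against a Cy3-labelled reference on a slide of its own, so n = 2 in each group. The monolayers hold a single cell line, with none of the other cell types of the intestinal wall.

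Proteins that enter the ER are folded by chaperones such as HSPA5 (BiP) and by disulfide isomerases, and those that fail to fold are taken back to the cytosol, tagged with ubiquitin and degraded. When unfolded proteins build up, 3 sensors in the ER membrane (ERN1, which is IRE1, EIF2AK3, which is PERK, and ATF6) lead to the transcription factors XBP1, ATF4 and cleaved ATF6, which switch on genes for folding, degradation and, through DDIT3 (CHOP), cell death. Enterocytes, which make brush border enzymes and lipoproteins, pass these products through the ER.

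The best-known switch of ER chaperone genes is the ER stress response element, bound by NF-Y at its CCAAT end and by ATF6 or XBP1 at its CCACG end. In the windows from 250 bases before to 50 bases after the annotated starts (RefSeq, GRCh38.p14), 33 of the 36 members had 45 windows. Searched on both strands for exact matches, the letters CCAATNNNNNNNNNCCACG (ERSE) were in 7 members, CALR, CANX, CRELD2, HSP90B1, HSPA5, PDIA6 and XBP1. They were in 9 of the 45 member windows and in 0.0769% of all 35116 promoter windows. The shorter ATTGGNCCACG (ERSE-II) was in HERPUD1, HYOU1 and SDF2L1, in 3 of the 45 member windows and in 0.0541% of all windows. A site of TGACGTGG, the core bound by XBP1 and ATF6 (UPRE), was in HYOU1 and VCP. It was in 2 of the 45 member windows and in 0.729% of all windows, and its reverse strand holds the letters CCACG that end the other elements. TGATGNAA, an amino acid response element bound by ATF4, was in HERPUD1, in 1 of the 45 member windows and in 3.62% of all windows. Below are the windows of HSPA5 (chr9:125241294-125241593, minus strand), XBP1 (chr22:28800520-28800819, minus strand) and HERPUD1 (chr16:56931892-56932191, plus strand), shown because these 3 genes were higher with MB452 and carry an element. Capitals mark the fixed letters of ERSE in HSPA5 and XBP1 and of ERSE-II in HERPUD1.
HSPA5: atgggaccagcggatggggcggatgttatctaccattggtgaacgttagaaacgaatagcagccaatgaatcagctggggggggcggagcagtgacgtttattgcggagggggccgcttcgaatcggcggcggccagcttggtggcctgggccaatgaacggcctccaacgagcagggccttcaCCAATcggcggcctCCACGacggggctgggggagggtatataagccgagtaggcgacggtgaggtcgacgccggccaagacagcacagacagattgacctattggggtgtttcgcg
XBP1: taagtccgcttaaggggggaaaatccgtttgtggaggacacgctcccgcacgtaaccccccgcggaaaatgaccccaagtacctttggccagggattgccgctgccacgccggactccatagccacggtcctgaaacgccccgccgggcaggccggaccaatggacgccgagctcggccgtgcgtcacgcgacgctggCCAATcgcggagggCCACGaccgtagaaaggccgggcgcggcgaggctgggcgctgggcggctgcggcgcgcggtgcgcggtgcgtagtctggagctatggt
HERPUD1: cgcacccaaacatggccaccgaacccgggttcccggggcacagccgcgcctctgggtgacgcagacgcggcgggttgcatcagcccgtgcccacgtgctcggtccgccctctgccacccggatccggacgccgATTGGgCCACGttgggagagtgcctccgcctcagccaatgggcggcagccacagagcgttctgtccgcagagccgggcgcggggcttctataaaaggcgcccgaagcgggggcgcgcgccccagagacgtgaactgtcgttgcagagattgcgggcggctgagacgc
The element lay at bases -66 to -48 from the start in HSPA5, -52 to -34 in XBP1 and -117 to -107 in HERPUD1. A second annotated start of XBP1 had no such site in its window. CANX, with ERSE, and HYOU1 and SDF2L1, with ERSE-II, were not called at gene level, and their elements are not printed. The elements of 4 other members that were not called at gene level are shown for comparison, read on the strand that gives CCAAT first, with the same letters in capitals.
CALR: CCAATgatggtcgaCCACG
HSP90B1: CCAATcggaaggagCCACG
CRELD2: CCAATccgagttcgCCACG
PDIA6: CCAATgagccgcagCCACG
These lay at -225 to -207 in CALR, -194 to -176 in HSP90B1, which had another at -89 to -71, -80 to -62 in CRELD2 and -86 to -68 in PDIA6. A match to these letters is a description of the sequence and no measurement of binding.

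Values are log2 ratios of the pool over the reference, so a difference of MB452 minus control is a log2 fold change and is positive where MB452 is higher. Levels cannot be compared between genes from these ratios, and in such bulk samples fewer cells and less RNA per cell cannot be told apart. A gene was called where its fold change was over 1.2 and its unadjusted moderated p in limma was under 0.05, the threshold of the methods. No gene on the array had a Benjamini-Hochberg adjusted p under 0.05, while 1232 genes had an unadjusted p under 0.05, and the adjusted p given beside each value in the text is over all 17910 genes in limma. The labels do not say whether the wells of a group came from separate cultures, so p-values measure the spread between these pools only, which may be technical. Among the 15 epithelial marker genes on the array, 7 (VIL1, CDH1, EPCAM, KRT8, KRT18, KRT19 and FABP1) had spots saturated in the high scan, 40.9% of the features of that list, against 3.1% of all named features and 0 of the fibroblast, leukocyte and endothelial features. The pools differed in how alike they were over all features, which are not independent replicates. MB452 A and B correlated at r = 0.67, while control A and B correlated at r = 0.40, less than control A with MB452 A (r = 0.59) or MB452 B (r = 0.49).

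Of the 36 members, 8 were higher with MB452, where 1.09% of all genes were, and 1 was lower, where 1.02% of all genes were. The higher members were the chaperones and cofactors HSPA5, DNAJB9, DNAJB11 and MANF, the degradation genes HERPUD1 and SYVN1, and the transcription factors XBP1 and DDIT3. UFD1, a cofactor of the ATPase that pulls proteins out of the ER, was lower. The other 27 members did not pass the threshold, among them HSP90B1, CALR and CANX. Both MB452 pools lay above both control pools in 15 of the 36 members, against 17.8% of all genes, and below them in 7 of the 36, against 19.5% of all genes. The median log2 fold change was 0.068 over the members and -0.0086 over all genes. A positive value was found in 22 of the 36 members, against 8191 of all 17910 genes. These members were named with earlier results of these data known, so the counts are a description.

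**Figure D1:**
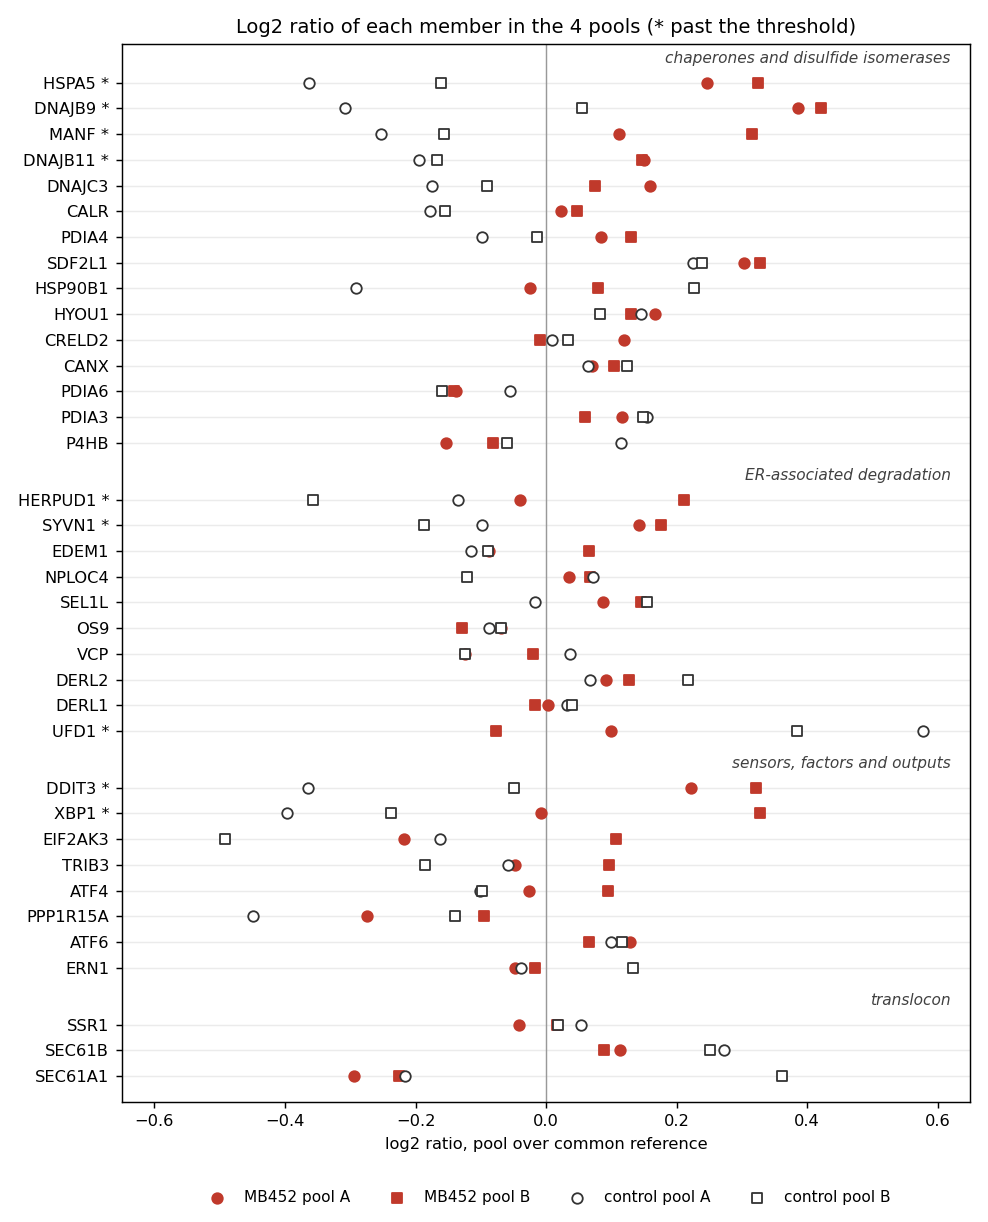
Log2 ratio of the pool over the reference (horizontal axis) for each of the 36 members (rows, by class), with filled symbols for the MB452 pools, open symbols for the control pools, circles for pool A, squares for pool B and a star beside members past the threshold. HSPA5, MANF, DNAJB11, SYVN1 and DDIT3 have both filled symbols above 0 and both open symbols below 0. So do DNAJC3, CALR and PDIA4, which have no star. For UFD1 the open symbols lie furthest to the right.

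**Figure D2:**
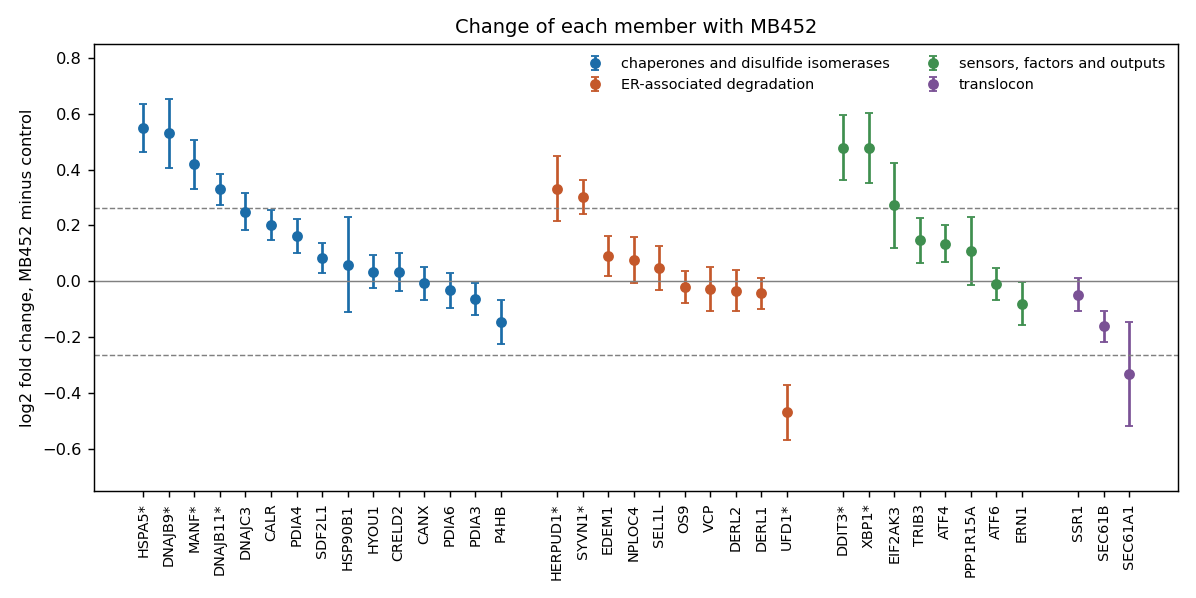
Log2 fold change of MB452 over control (vertical axis) for each member, coloured and ordered by class, with bars of 1 SE from limma on each side. A star beside the name marks the 9 members past the threshold, and the dashed lines mark the fold minimum of 1.2 in each direction.

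Among chaperones, HSPA5 (BiP), the Hsp70 of the ER lumen that also keeps the sensors inactive, had the largest value of the members. It was 0.25 and 0.32 in MB452 pools A and B, against -0.36 and -0.16 in control pools A and B. No MB452 pool overlapped a control pool, and the log2 fold change was 0.55 (standard error, SE, 0.086 with adjusted p = 0.599), the 8th largest of 17910 genes. Its 2 features gave 0.60 and 0.50, and both passed the threshold alone. The scans of these features differed in size but not in direction, with 0.72 in the high and 0.47 in the low scan for the feature at 0.60 and 0.21 in the high and 0.79 in the low scan for the feature at 0.50. HSPA5 was called under each of the 19 alternatives except a fold minimum of 1.5, with values between 0.45 and 0.65.

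HSPA5 works with J proteins, which hand it unfolded chains. DNAJB9 (ERdj4), which also restrains ERN1, was 0.39 and 0.42 in the MB452 pools and -0.31 and 0.055 in the control pools. The groups did not overlap, although the control pools lay far apart, and the log2 fold change was 0.53 (SE 0.12, adjusted p = 0.599), or 0.35 without control A. DNAJB11 (ERdj3), which binds newly made chains, was 0.15 in each MB452 pool, against -0.20 and -0.17 in the control pools, a log2 fold change of 0.33 (SE 0.055, adjusted p = 0.599). The pools of each group were close to each other for this gene. Its value was 0.43 in the high and 0.23 in the low scan, and it was not called from the low scan alone or with the slide as a random block. DNAJC3 (p58IPK) was 0.16 and 0.075 in the MB452 pools, against -0.17 and -0.090 in the control pools, and its log2 fold change of 0.25 (SE 0.065, adjusted p = 0.622) fell just under the fold minimum. One feature of DNAJC3 passed the threshold (0.38) and the other did not (0.12). The gene was called in 6 of the 19 alternatives. They were the high scan alone (0.31), the high scan unless saturated (0.31), no fold minimum, the most variable feature (0.38), and leaving out control B (0.29) or MB452 B (0.29).

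MANF, a small secreted protein that binds HSPA5, was 0.11 and 0.32 in the MB452 pools, against -0.25 and -0.16 in the control pools. The groups did not overlap, with a log2 fold change of 0.42 (SE 0.088, adjusted p = 0.599). The only feature of MANF was saturated in the high scan on 3 of 4 slides, so this value is from the low scan, and averaging the saturated values in brought it to 0.20, which was not called.

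The lectin chaperones and GRP94 were not called at gene level. Calreticulin (CALR) was 0.023 and 0.048 in the MB452 pools and -0.18 and -0.16 in the control pools, which did not overlap, and its log2 fold change of 0.20 (SE 0.055, adjusted p = 0.629) was under the fold minimum. The bright CALR feature, saturated in the high scan, gave 0.29 and passed the threshold, while the dimmer feature gave 0.11. HSP90B1 (GRP94), the Hsp90 of the ER, was -0.025 and 0.079 in the MB452 pools and -0.29 and 0.23 in the control pools, with a log2 fold change of 0.060 (SE 0.17, adjusted p = 0.957). Here the control pools lay on either side of the MB452 pools. The feature of HSP90B1 measured in the low scan passed the threshold (0.36), a dimmer feature gave -0.24 with control B at 0.60, and the remaining feature was saturated in both scans and was not measured. Its direction differed with the control pool and the scan, with 0.32, which was called, without control B, -0.20 without control A and -0.32 from the high scan alone, neither of them called. Calnexin (CANX), the membrane-bound partner of calreticulin, was 0.070 and 0.10 in the MB452 pools and 0.064 and 0.12 in the control pools, with a log2 fold change of -0.0075 (SE 0.058).

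The disulfide isomerases were spread about 0. PDIA4 was 0.085 and 0.13 in the MB452 pools, against -0.098 and -0.014 in the control pools, with a log2 fold change of 0.16 (SE 0.062, adjusted p = 0.713), under the fold minimum. PDIA3, which pairs with the lectin chaperones, had a value of -0.063, PDIA6 of -0.032 and P4HB, the classical protein disulfide isomerase, of -0.15, all short of the threshold. SDF2L1, a partner of DNAJB11, was 0.30 and 0.33 in the MB452 pools and 0.23 and 0.24 in the control pools, with a log2 fold change of 0.083 (SE 0.055, adjusted p = 0.801). Its scans disagreed in direction, the high one giving -0.16 and the low one 0.32, which was called. HYOU1 (GRP170), which recharges HSPA5 with ATP, had a value of 0.035 and CRELD2, a small ER protein, of 0.034. Over the 15 chaperones and isomerases the median log2 fold change was 0.083, with 4 called higher, 0 lower and 11 of 15 positive. Of all genes, 1.09% were called higher and 1.02% lower, and 8191 of 17910 were positive. The chaperone median was 0.015 from the high scan alone, 0.18 from the low scan alone and 0.21 without control B.

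In ER-associated degradation the membrane ubiquitin ligase and a protein of its complex were higher. SYVN1 (HRD1), the ligase, was 0.14 and 0.18 in the MB452 pools, against -0.098 and -0.19 in the control pools. The groups did not overlap and the log2 fold change was 0.30 (SE 0.062, adjusted p = 0.599), with 0.50 in one feature, which passed the threshold, and 0.10 in the other. HERPUD1, a short-lived stress-induced protein that joins the SYVN1 complex, was -0.040 and 0.21 in the MB452 pools, against -0.14 and -0.36 in the control pools, a log2 fold change of 0.33 (SE 0.12, adjusted p = 0.694). Its pools spread widely within each group, and its only feature took the low scan, being saturated at the high voltage on all 4 slides. SYVN1 was not called without control B (0.26) nor from the low scan alone (0.26). HERPUD1 was called neither without control B (0.22) nor without MB452 B (0.21), nor with the saturated values averaged in (0.16).

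UFD1, which with NPLOC4 guides the ATPase VCP to ubiquitin-tagged proteins, was the member furthest below 0. It was 0.10 and -0.077 in the MB452 pools, against 0.58 and 0.38 in the control pools. The groups did not overlap, and the log2 fold change was -0.47 (SE 0.097, adjusted p = 0.599), the same in both scans. Neither partner was called, and NPLOC4 had a value of 0.076 and VCP of -0.028. The remaining degradation genes were the adaptor SEL1L (0.048), the membrane proteins DERL1 (-0.043) and DERL2 (-0.033), and EDEM1 (0.091) and OS9 (-0.021), which read the sugar chains of misfolded proteins, and all lay short of the threshold. Over the 10 degradation genes the median was 0.013, with 5 positive and 5 negative values, beside 8191 positive and 9719 negative over all genes.

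Of the 3 sensors none was called. ERN1 (IRE1) was -0.048 and -0.017 in the MB452 pools and -0.038 and 0.13 in the control pools, with a log2 fold change of -0.079 (SE 0.076, adjusted p = 0.831). Its 3 features gave 0.14, 0.077 and -0.45, the last with control B at 0.51, and without control B the value turned to 0.0063. EIF2AK3 (PERK) was -0.22 and 0.11 in the MB452 pools and -0.16 and -0.49 in the control pools, which overlapped, with a log2 fold change of 0.27 (SE 0.15, adjusted p = 0.79). It was called only without control A (0.44), and was 0.11 without control B and 0.11 without MB452 B. ATF6 was 0.13 and 0.065 in the MB452 pools and 0.099 and 0.12 in the control pools, with a value of -0.010 (SE 0.058, adjusted p = 0.977).

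Of the transcription factors, XBP1 and DDIT3 were higher. XBP1, whose mRNA is spliced by ERN1, was -0.0076 and 0.33 in the MB452 pools, against -0.40 and -0.24 in the control pools. Both MB452 pools lay above both control pools although each group spread, and the log2 fold change was 0.48 (SE 0.13, adjusted p = 0.622). The bright feature, from the low scan, gave 0.68 and the other 0.28, so that the high scan alone gave 0.31, which was not called. Without MB452 B the gene stayed past the threshold at 0.31. Spliced and unspliced XBP1 mRNA were not told apart here, since probe sequences were not used. DDIT3 (CHOP), a target of ATF4 that promotes cell death, was 0.22 and 0.32 in the MB452 pools, against -0.37 and -0.050 in the control pools. Its groups did not overlap, and the log2 fold change was 0.48 (SE 0.12, adjusted p = 0.599), with 0.42 in the high and 0.54 in the low scan, while without MB452 B it was 0.43 and not called.

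ATF4, which EIF2AK3 signalling raises mainly through translation, was -0.026 and 0.095 in the MB452 pools, against -0.10 and -0.099 in the control pools, with a log2 fold change of 0.13 (SE 0.066, adjusted p = 0.774). The groups did not overlap, but its 3 features disagreed. The feature that passed the threshold gave 0.43, another 0.099, and the saturated feature gave -0.13 in the low scan with MB452 A at -0.58. ATF4 was called from the high scan alone (0.345) and with the most variable feature (0.43), and was not called from the low scan alone (0.082). PPP1R15A (GADD34), which ends the translational block, had a log2 fold change of 0.11 (SE 0.12) and was not called. It was 0.26, which was called, without control B, -0.046 without control A and 0.020 without MB452 B. TRIB3, a pseudokinase induced by DDIT3, had a value of 0.15 (SE 0.080) and was not called. Over the 8 genes of this class the median was 0.14, with 6 positive values and 2 called higher. Of all 17910 genes, 8191 were positive and 1.09% were called higher. The class median was 0.22 from the high scan alone, 0.21 without MB452 A and 0.074 without MB452 B.

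All 3 genes of the translocon, the channel through which chains enter the ER, had lower ratios in both MB452 pools than in both control pools. So had 19.5% of all genes, none of the 3 passed the threshold, and for SEC61A1 and SSR1 the nearest pools of the groups almost met. SEC61B was 0.11 and 0.088 in the MB452 pools, against 0.27 and 0.25 in the control pools, with a log2 fold change of -0.16 (SE 0.055, adjusted p = 0.688), under the fold minimum. Its 2 features, both saturated in the high scan, each gave -0.16. SEC61A1, the channel itself, was -0.29 and -0.23 in the MB452 pools, against -0.22 and 0.36 in the control pools, with a log2 fold change of -0.33 (SE 0.19, adjusted p = 0.79). Control B stood apart here, and the value was -0.044 without control B and -0.62, past the threshold, without control A. That second fit sets the MB452 pools against control B alone, which is assumed to vary as the MB452 pools do. SSR1, a subunit of the complex beside the channel, was -0.041 and 0.0169 in the MB452 pools and 0.053 and 0.0179 in the control pools. Its log2 fold change was -0.047 (SE 0.058).

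Saturation was more frequent among the members than over the array. In the high scan 14.3% of their features were saturated, 10 of 70, against 3.1% of all named features, and 9 of these took the low scan. The MANF feature and both SEC61B features were not marked as saturated on control A. Their high-scan values there were -0.199 for MANF and -0.082 and -0.222 for SEC61B, beside -0.224 for saturated features. For the others, saturated on all 4 slides, the high scan holds no difference between pools. Of the 69 measured features, 13 were higher and 1 lower by the same threshold, where 1.39% of all 41731 features were higher and 0.935% lower, and no feature on the array had an adjusted p under 0.05 (2460 had an unadjusted p under 0.05). All 14 called features were annotated with a RefSeq mRNA, 14 of 52 or 26.9%, against 0 of the 17 annotated with other sequences. Over all named features these shares were 3.07% and 1.47%. Of the 21 members with several measured features, 9 had features of both signs (ATF4, ATF6, CANX, DERL1, ERN1, HSP90B1, NPLOC4, SEL1L and SSR1). The fold changes of the 2 scans differed by over 0.3 in 4 of 60 member features, 1 each of HSPA5, SDF2L1, TRIB3 and CANX (6.67%), against 0.373% of all features measured in both scans.

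**Figure D3:**
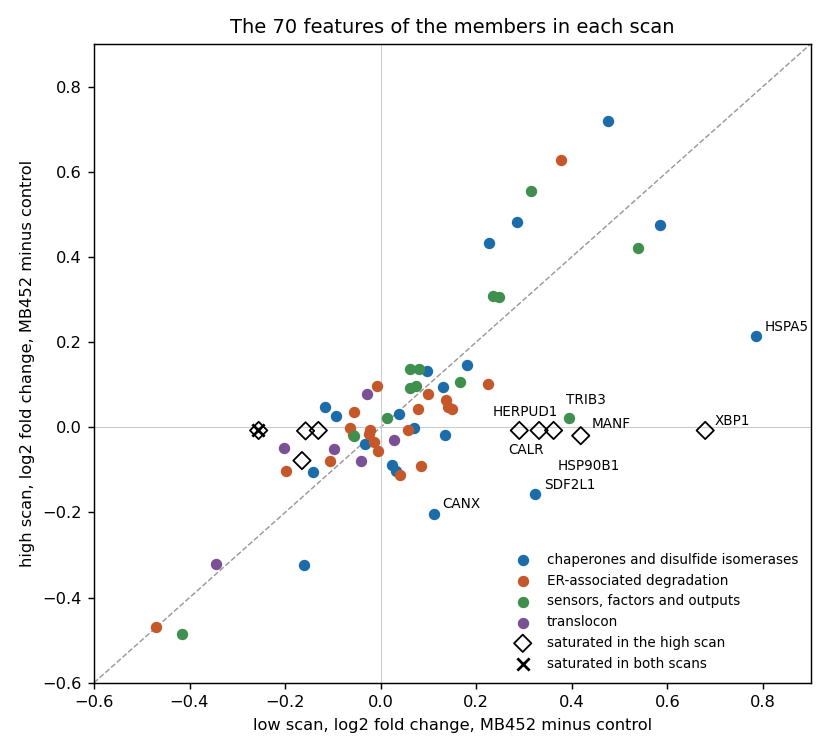
Log2 fold change of MB452 over control in the low scan (horizontal axis) plotted against the high scan (vertical axis) for each of the 70 member features, coloured by class, with open diamonds for features saturated in the high scan and a cross for the feature saturated in both. The open diamonds lie near 0 on the vertical axis, and in the low scan those of XBP1, MANF, HSP90B1, HERPUD1 and CALR lie between 0.29 and 0.68 and those of P4HB, ATF4 and SEC61B between -0.26 and -0.13.

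Members with an ER stress response element were not all higher. Of the 10 members with ERSE or ERSE-II, 3 were called higher (HSPA5, XBP1 and HERPUD1), beside 8 of all 36 members and 1.09% of all genes, and 7 were not called, CALR, CANX, CRELD2, HSP90B1, HYOU1, PDIA6 and SDF2L1. DNAJB9, DNAJB11, MANF, SYVN1 and DDIT3 were higher with no exact match to either element in their windows. Elements that differ by a base or lie outside the windows were not searched for, so these genes may still carry one. Outside the members, 12 genes with ERSE were measured and 0 were called, with a median log2 fold change of 0.0040, and of 14 with ERSE-II 1 was higher and 0 lower, with a median of -0.0047.

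**Figure D4:**
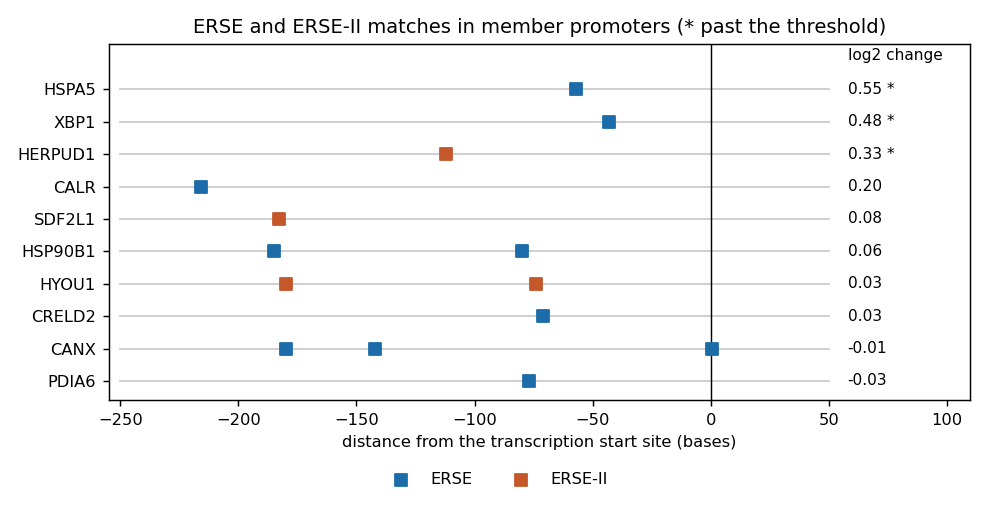
ERSE (blue) and ERSE-II (orange) matches by distance in bases from the annotated start (horizontal axis) in the 10 members that have one, in order of log2 fold change, which is printed at the right with a star for those past the threshold. HSPA5, XBP1 and HERPUD1 stand at the top, and the CANX symbols are 1 site seen from 3 annotated starts.

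In each of 6 lists of other genes of these pathways 0 to 2 genes were called in a direction, where 1.09% of all genes were higher and 1.02% lower. Of 38 other ER folding enzymes and chaperones, 35 were measured, 0 were called in either direction and the median log2 fold change was -0.080. Negative values were found in 25 of the 35, against 9719 of all 17910 genes. Both MB452 pools lay below both control pools in 17 of the 35, against 19.5% of all genes. They lay above them in 3 of the 35, against 17.8% of all genes. Of 35 other degradation genes measured, 1 was higher and 1 lower, with a median of 0.012. SELENOK, a selenoprotein of the degradation complex, was 0.56 and 0.40 in the MB452 pools, against -0.026 and 0.24 in the control pools, with a log2 fold change of 0.37 (SE 0.11, adjusted p = 0.651). TMEM129, an ER ubiquitin ligase, had a log2 fold change of -0.36 (SE 0.093, adjusted p = 0.622).

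Of 31 other transducers and targets of the unfolded protein response, 2 were higher and 0 lower, with a median of 0.020. CREB3L3, an ER-bound transcription factor of liver and intestine that is cut in the way ATF6 is, was 0.23 and 0.24 in the MB452 pools, against -0.22 and -0.093 in the control pools, with a log2 fold change of 0.39 (SE 0.067, adjusted p = 0.599). TNFRSF10B, a death receptor and a target of DDIT3, was 0.092 and 0.30 in the MB452 pools, against -0.20 and -0.19 in the control pools, with a log2 fold change of 0.39 (SE 0.083, adjusted p = 0.599). Both genes had groups that did not overlap. Of 39 genes of translocation, signal peptidase and N-glycosylation, 0 were called, with a median of -0.044. In 16 of the 39 both MB452 pools lay below both control pools and in 3 above them, against 19.5% and 17.8% of all genes. Among 26 genes of ER export and retrieval, ARFGAP3 (0.35, SE 0.067) and SEC24A (0.27, SE 0.10), which act in vesicle coats, were higher. The cargo receptor TMED9 (-0.38, SE 0.11) was lower, and the median of the list was 0.047. In 10 of the 26 both MB452 pools lay above both control pools and in 6 below them. Of 16 genes of ER calcium handling, 1 was called, the calcium-binding protein RCN1, lower with a log2 fold change of -0.27 (SE 0.068), and the median was 0.010.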

How the data were processed

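RNA of 4 pools was measured on 4 Agilent slides in 2 colours, each scanned at a high and a low voltage, in 8 columns, all used (0 left out). The authors quantified the scans in GenePix, removed poor spots by hand, subtracted no background and loess-normalized each array in limma (version not stated), and the deposited values are the resulting log2 ratios of Cy5, the pool, over Cy3, the reference. No source used here states the log base, which was taken as 2 from the size of the values. The labels' protocol describes the reference as equal RNA from all wells, while their short name for it is a control or MB452 reference. The paper's methods likewise describe a single reference pooled from all wells. The fold changes given here take the reference as common to all slides. The authors' values combined from both scans were not used here.

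Columns were first centred on their medians, which lay between 0.0046 and 0.017 (limma 3.58.1 in R 4.3.3). In every column 1 value is repeated over many features (1201 to 1534 in high scans, 310 to 397 in low scans) and was taken as saturation. The 1563 features saturated in the high scan of any slide took the low scan, and the 411 also saturated in the low scan were left out. All others took the mean of both scans, or the complete scan where the other lacked a value on a slide. Features without a value on all 4 slides were left out, leaving 41731 features. No intensities were used, so signal over background is not known. Saturation that leaves no repeated ratio, such as that of a single colour, would not be found in this way. The precision is limited by 2 slides a group. Genes were named by the platform annotation (29033 features with 1 symbol, 97 with several, 15160 with none), with symbols updated through gene identifiers to RefSeq GRCh38.p14 for 28992. A gene's value is the mean over its features (7304 genes had over 1). The fit was lmFit and eBayes, MB452 minus control, without covariates, and was tested on simulated data.

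The members and lists were chosen with earlier results of these data known. All members are named, with full statistics for those called at gene or feature level and for HSPA5, XBP1, DDIT3, ATF4, ATF6, ERN1 and EIF2AK3, and from each pathway list up to 4 called genes. CANX, PDIA4, SDF2L1, SEC61B, SEC61A1 and SSR1 are also given by pool, a choice made after their values were seen. Alternatives covered the scans, centring, missing values, the variance model, the fold minimum, blocking on the letter, leaving out single pools and choosing a feature per gene.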

Additional observations from a re-analysis of the deposited data

How the results depend on the processing

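Of the 9 called members, HSPA5, DNAJB9 and UFD1 lost the call only with a fold minimum of 1.5, where 0 members were called higher and 0 lower and 10 genes in all, against 378 with the minimum of 1.2. No fold minimum gave 1232 genes and 2 lower members, and taking the most variable feature gave 620 genes. The number of higher members was 6 to 11 in the other settings. The sample titles tell the pools of a group apart by the letters A and B, and whether pools of the same letter were paired is not known. The differences between pools A and B of the groups correlated at -0.034 over features, which does not settle it. With the letters as a replicate block 8 members were higher, 2 lower (SEC61A1 added) and 481 genes called. With the slide as a random block 2 members were lower. Leaving out each pool gave 7 to 9 higher and 1 to 2 lower members and 344 to 1733 genes, of which 1733 came without control A (373 higher, 1360 lower) and 597 without control B. The chaperone median, 0.083, was 0.015 with the high scan only, 0.18 with the low scan only, 0.030 with the high scan unless saturated, 0.18 with quantile scaling and 0.077 to 0.21 with a pool left out. The sensor median, 0.14, was 0.22 with the high scan only, 0.24 with the most variable feature and 0.074 to 0.21 with a pool left out. Among members further than 1 SE from 0, signs turned for SDF2L1 (-0.16 with the high scan only and with the high scan unless saturated) and ERN1 (0.0063 without control B, 0.077 as the median over features). In 28 others of the 681 member values computed, of members within 1 SE of 0, the sign turned without a call, to at most -0.32 (HSP90B1 with the high scan only). The lowest adjusted p of a member was 0.147 with the slide block and 0.543 to 0.999 otherwise, apart from the fits without control A (0.00963, with 753 genes under 0.05) or control B (0.0627), in which the lone control pool is assumed to vary as the MB452 pools do, so that the spread between control pools does not enter. The cause of these changes was not tested, and 2 slides a group limit every value.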
